A study of Mus musculus with 12 samples.

Results

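Gene expression was compared between the femoral shafts of catalase knockout and wild-type mice that had all been given binge ethanol. The comparison uses 6 of the 12 bulk RNA-seq libraries of the study, taken by their genotype and gavage labels, and all genes with enough counts to be tested, which were 18161 of the 49315 in the count table. The Cat−/− ethanol group has libraries 4, 5 and 6, and the Cat+/+ (wild-type) ethanol group has libraries 10, 11 and 12. All mice were males of 12 weeks. They received ethanol by gavage on 4 consecutive days, the daily dose climbing to 4.5 g/kg after 3 g/kg on days 1 and 2 and 4 g/kg on day 3, from a 31.5% (v/v) solution, and were killed 6 hours after the last dose. The other 6 libraries, 3 of each genotype, came from mice given phosphate-buffered saline (PBS) in the same volume, and are used here to estimate the spread and for the test of whether the genotype difference depended on the gavage. Marrow had been removed from the femurs by centrifugation, and each library was made from the pooled RNA of 2 mice. The spread behind every p-value is thus that between pools. The labels do not say which part of the Cat gene is missing, in which strain, or whether the genotypes were littermates.

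Catalase is the peroxisomal enzyme that turns hydrogen peroxide into water and oxygen, and it can also oxidise ethanol to acetaldehyde. Bone cells use hydrogen peroxide as a signal as well as having to remove it: in mice, peroxide is known to favour the formation of osteoclasts, the cells that resorb bone. A second route relevant to the results is the integrated stress response, in which kinases that phosphorylate the translation factor eIF2 slow protein synthesis in general while the transcription factor ATF4 is made. ATF4 and its partners raise genes for amino acid uptake, for the synthesis of amino acids and one-carbon units, and for the enzymes that charge tRNAs.

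The libraries held 28036282, 23133013 and 26221200 counts in the Cat−/− ethanol group, against 21028338, 20940308 and 19950222 counts in the wild-type ethanol group. The defining markers of bone were present in all 6 libraries, among them Col1a1 (collagen I), Bglap (osteocalcin) and Ibsp of osteoblasts, Dmp1 and Sost of osteocytes, and Ctsk and Acp5 of osteoclasts. Sost, the Wnt inhibitor secreted by osteocytes, was at 1075, 1361 and 619 CPM (counts scaled to library size by TMM) in the Cat−/− libraries and 728, 852 and 1312 CPM in the wild-type libraries. Blood and marrow genes were present too, and skeletal muscle genes differed widely between libraries of 1 genotype. The 18 muscle genes took 0.900%, 1.05% and 0.821% of the counts in the Cat−/− libraries, and 0.206%, 2.33% and 4.30% in wild-type libraries 10, 11 and 12. Under PBS they took 0.439%, 1.52% and 1.09% in Cat−/− libraries, and 0.441%, 3.58% and 4.07% in wild-type libraries 7, 8 and 9. The PBS values below thus come from groups that also differed in muscle share. Wild-type replicates were less alike: the correlation of log2 CPM across genes was 0.989 to 0.990 between Cat−/− pairs and 0.959 to 0.983 between wild-type pairs. On the first principal component, with 52.5% of the variance, the Cat−/− libraries lay at −8.83, −4.77 and −18.3, between wild-type library 10 at −45.5 and wild-type libraries 11 and 12 at 16.6 and 60.7. In bulk tissue a smaller number of cells of a type and less RNA per cell cannot be told apart, and this holds for each cell marker below.

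Few genes differed between the genotypes by the main test. At an adjusted p under 0.05 over all genes (edgeR quasi-likelihood, Benjamini-Hochberg), 2 genes fell in the Cat−/− ethanol libraries (0.011% of those tested), Cat and Cd59a, and 0 rose. At an unadjusted p under 0.05 there were 756 higher genes (4.16%) and 294 lower genes (1.62%), and limma-voom also called 2 lower and 0 higher. DESeq2 called 14 genes, 11 higher (0.0606%) and 3 lower (0.0165%), and left 3875 genes without an adjusted p. The numbers at the unadjusted threshold rest partly on library 12: without it they were 339 higher and 261 lower, without wild-type library 10 they were 1409 and 893, without Cat−/− library 6 they were 362 and 209, and without Cat−/− library 4 they were 422 and 257. With only the 6 ethanol libraries in the fit they were 361 and 362, and with upper-quartile scaling 542 and 327. The median log2 difference of all genes was −0.0043 and 48.8% of genes were above 0, so list medians below can be read against a value near 0.

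**Figure D1:**
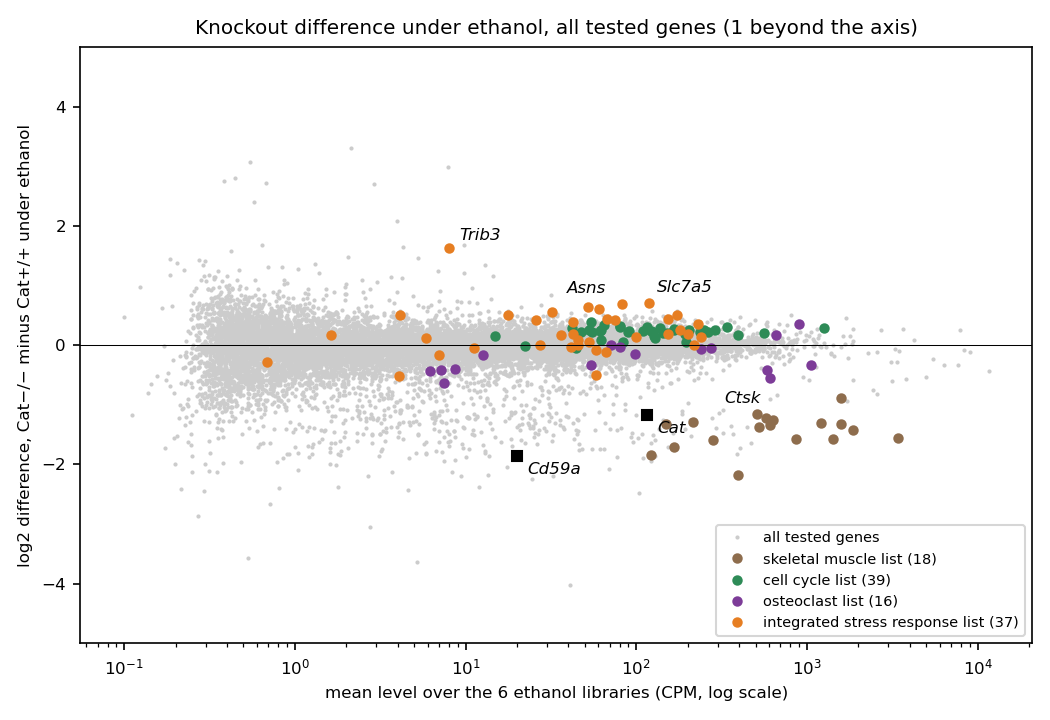
Log2 difference between Cat−/− and wild-type ethanol libraries (vertical axis) against the mean level in CPM on a log scale (horizontal axis) for the 18161 tested genes, with 4 gene lists in colour and the 2 genes called by edgeR as black squares. Cat lies at −1.16 and Cd59a at −1.85, the stress response genes Trib3, Slc7a5 and Asns lie at 1.63, 0.71 and 0.69, and the 18 muscle genes all lie below 0.

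Cat itself, at chr2:103453849-103485160, minus strand on GRCm38, was counted at 69, 74.2 and 71.6 CPM in the Cat−/− ethanol libraries, against 172, 165 and 144 CPM in the wild-type ethanol libraries. Every knockout library lay below every wild-type library, and the knockout level was 0.446 of the wild-type level. The log2 difference was −1.16 ± 0.10 (SE), with an adjusted p of 0.00102 by edgeR, and it was −1.17 under PBS. Transcript from the locus was therefore still counted in the knockout, and which exons those counts came from cannot be seen in a table of counts per gene.

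Cd59a, at chr2:104095801-104115354, plus strand, encodes a membrane-anchored protein that blocks the final pore-forming complex of complement. It was counted at 8.35, 9.41 and 8.14 CPM in the Cat−/− libraries, against 34.1, 30.1 and 29.3 CPM in the wild-type libraries. All 3 knockout libraries were far below the wild-type range. The log2 difference was −1.85 ± 0.15 (adjusted p = 0.000689, edgeR), against −1.53 under PBS (adjusted p = 0.00238). The sources used here do not state how reads shared with its neighbouring copy Cd59b were counted; Cd59b had 1.55, 0.798 and 1.13 CPM in Cat−/− and 1.8, 1.93 and 1.37 CPM in wild-type libraries, which overlap.

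Cd59a lies on the same chromosome as Cat, and other genes there also differed between genotypes. Of the 44 tested genes within 5 Mb on either side of Cat, 1 was called by edgeR. In either direction 9 had an unadjusted edgeR p under 0.05, against 4.16% of all genes higher and 1.62% lower. With no overlap between the groups 5 were higher and 5 lower, against 7.12% higher and 4.04% lower among all genes. Both directions together made 22.7% of the 44, to be read against those 2 shares added together. Elf5, an epithelial transcription factor, had 1.21, 1.05 and 1.31 CPM in Cat−/− libraries and 0.138, 0.376 and 0 CPM in wild-type libraries. It was low throughout, and all 3 knockout libraries were above the wild-type ones. Depdc7, a gene of little known function, was at 5.35, 4.62 and 5.11 CPM in Cat−/− libraries and 2.17, 2.07 and 2.58 CPM in wild-type libraries. Its log2 difference was 1.15 ± 0.22 under ethanol (adjusted p = 0.457 by edgeR, 0.00411 by DESeq2) and 0.68 under PBS. Its neighbour Tcp11l1 stood at 0.70 ± 0.15 under ethanol (adjusted p = 0.75 by edgeR, 0.0407 by DESeq2) and 0.64 under PBS. Fbxo3, part of a ubiquitin ligase, was at 113, 120.1 and 115 CPM in Cat−/− and 139, 127 and 134 CPM in wild-type libraries, a log2 difference of −0.20 under ethanol and −0.19 under PBS. Near Cat, then, the knockout differences of Cd59a, Elf5, Depdc7, Tcp11l1 and Fbxo3 had the same sign with and without ethanol.

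Several genes of the integrated stress response stood higher in the knockout after ethanol. Of the 15 higher genes with the smallest p and no overlap between groups, 7 are members of that list: Slc7a5, Slc3a2, Ddit3, Trib3, Asns, Mthfd2 and Shmt2. None reached an adjusted p under 0.05 by edgeR, and DESeq2 called all 7. Because these genes were picked for no overlap, their separation between the groups, given below, is part of the choice. In all, 29 of the 37 tested members were above 0, 17 were higher and 1 was lower with no overlap, and the list median was 0.18, against 7.12% of all genes higher with no overlap and a median near 0. This list, like the others, was chosen with earlier results of these data known, so such shares are a description. The summed level of the list was 2947, 2874 and 3141 CPM in the Cat−/− libraries and 2655, 2449 and 2385 CPM in the wild-type libraries, so the groups did not overlap. Wild-type library 12, the one richest in muscle transcripts, had the lowest sum. Without it the median was 0.15, with the muscle genes as a covariate it was 0.17, and over all single libraries left out it was 0.15 to 0.24. Under PBS the median was 0.019, with 22 of 37 above 0.

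Trib3, a pseudokinase that is a target and a brake of ATF4, showed the largest difference of the list. It was counted at 10.9, 8.95 and 16.6 CPM in the Cat−/− ethanol libraries, against 4.29, 2.96 and 4.53 CPM in the wild-type ethanol libraries. Library 6 was the highest, and the lowest knockout library was still above every wild-type one. The log2 difference was 1.63 ± 0.31 (adjusted p = 0.457 by edgeR and 0.00086 by DESeq2), a ratio of 3.1. Under PBS its mean was 1.49 CPM in Cat−/− and 2.07 CPM in wild-type libraries, and the difference between the gavages was 2.09 ± 0.45 (unadjusted p = 0.000705, adjusted p = 1.0, edgeR).

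The transport genes of the list were led by the pair that forms the large neutral amino acid carrier at the cell surface. Slc7a5, its transporting chain, was at 148, 132 and 162 CPM in the Cat−/− libraries, against 101, 97.7 and 71.3 CPM in the wild-type libraries. Slc3a2, the heavy chain that brings it to the membrane, was at 173, 174 and 183 CPM in the Cat−/− libraries, against 139.7, 134 and 118 CPM in the wild-type libraries. For both genes the 3 knockout libraries lay above the 3 wild-type libraries, and library 12 was the lowest of all. The log2 differences were 0.71 ± 0.12 for Slc7a5 and 0.44 ± 0.073 for Slc3a2. The adjusted p was 0.324 and 0.342 by edgeR, and 3.97e-05 and 5.48e-05 by DESeq2. Across all alternatives the adjusted p of Slc7a5 spanned 2.03e-06 to 0.93 and its log2 difference stayed within 0.57 to 0.80 when any 1 library was left out.

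Among the other transporters, Slc7a1, which carries cationic amino acids, was at 75.1, 70.4 and 87.3 CPM in Cat−/− libraries and 65.7, 60.9 and 45.3 CPM in wild-type libraries. Slc1a5, which carries glutamine, was at 265, 245 and 264 CPM in Cat−/− libraries and 239, 211 and 158 CPM in wild-type libraries. Slc6a9, the glycine transporter that developing red cells also use, was at 64.9, 58.5 and 66.9 CPM in Cat−/− libraries and 49.4, 42.9 and 29.6 CPM in wild-type libraries. None of these 3 groups of libraries overlapped between genotypes, with log2 differences of 0.44, 0.35 and 0.64, and none passed the edgeR threshold. Without wild-type library 12 Slc1a5 stood at 0.20. Slc7a11, the cystine importer that supplies glutathione synthesis, went the other way, at 3.31, 3.03 and 3.8 CPM in Cat−/− libraries and 5.99, 4.23 and 4.21 CPM in wild-type libraries. Its groups did not overlap either, at a log2 difference of −0.51 ± 0.22 (unadjusted p = 0.0417, adjusted p = 0.82), and −0.32 without wild-type library 10. Of the 9 transport genes, 5 were higher and 1 was lower with no overlap (7.12% and 4.04% of all genes). Their median was 0.44, against 0.12 under PBS.

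**Figure D2:**
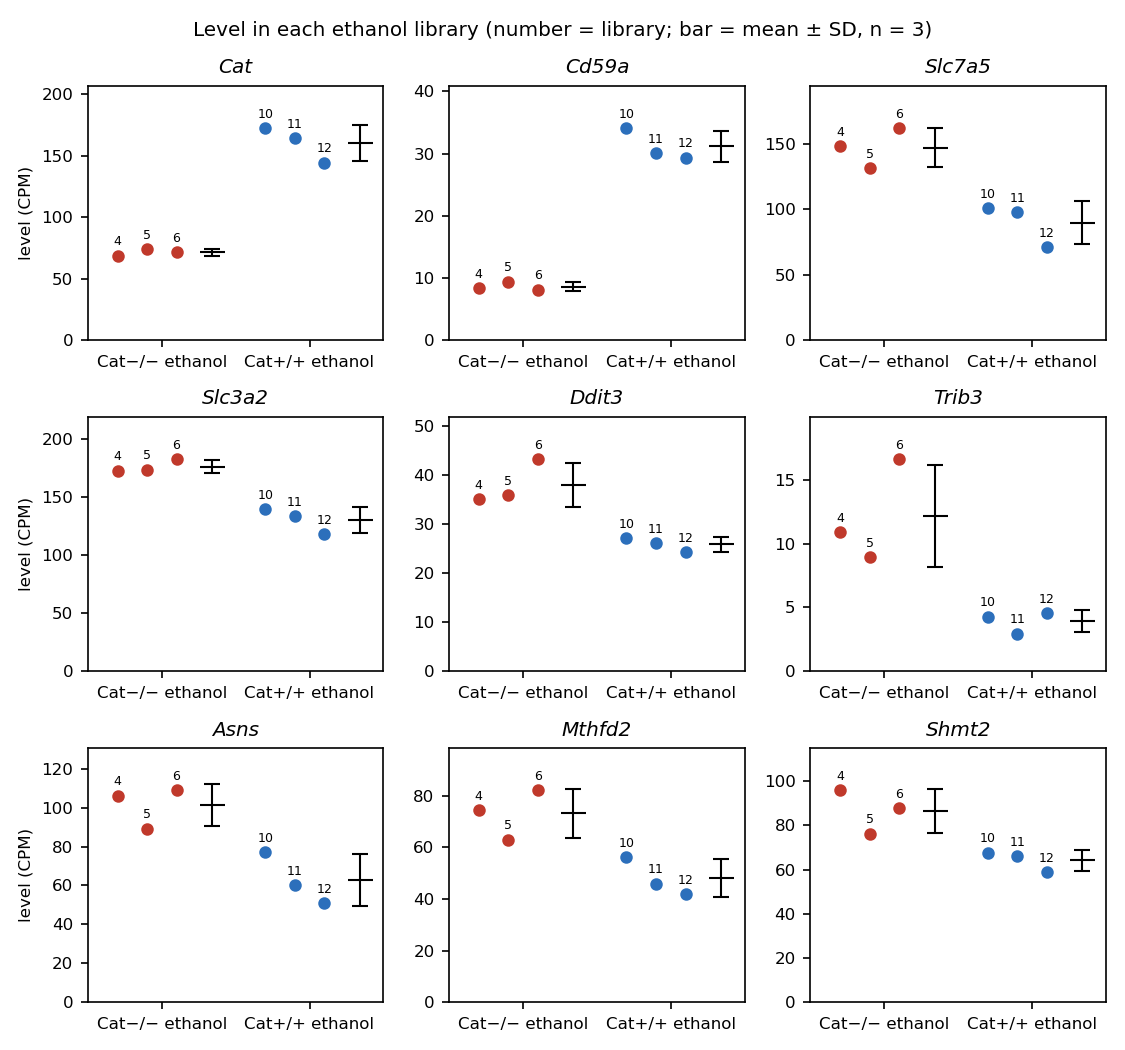
Levels in CPM (vertical axis, from 0) of Cat, Cd59a and the 7 stress response genes in each ethanol library, with Cat−/− libraries 4, 5 and 6 on the left of each panel, wild-type libraries 10, 11 and 12 on the right, and the mean ± SD (n = 3) beside the points. Cat and Cd59a are lower in every knockout library. Each of the 7 stress response genes is higher in every knockout library, as for Trib3 with 10.9, 8.95 and 16.6 CPM against 4.29, 2.96 and 4.53 CPM. The 7 were chosen for no overlap between the groups, so their separation is part of the choice.

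The enzymes that make amino acids and one-carbon units stood higher as well. Asns, which makes asparagine, was at 106, 89.2 and 109 CPM in the Cat−/− libraries, against 77.2, 60.1 and 50.8 CPM in the wild-type libraries. Mthfd2, a mitochondrial enzyme of the folate cycle, was at 74.4, 63 and 82.1 CPM in the Cat−/− libraries, against 56.2, 46 and 42 CPM in the wild-type libraries. Shmt2, the mitochondrial enzyme that draws one-carbon units from serine, was at 95.8, 76.2 and 87.6 CPM in the Cat−/− libraries, against 67.7, 66.1 and 58.8 CPM in the wild-type libraries. In all 3 genes the lowest knockout library was library 5 and it exceeded the highest wild-type library. The log2 differences were 0.69, 0.61 and 0.43, with adjusted p of 0.457, 0.457 and 0.595 by edgeR and 0.00277, 0.00664 and 0.0289 by DESeq2. Of the 8 members of this role, 7 were above 0 and 5 were higher with no overlap (7.12% of all genes). Their median was 0.28, against 0.036 under PBS, and 0.16 under ethanol without wild-type library 12. Phgdh and Psat1, which open the synthesis of serine, differed less, at 0.18 and 0.19.

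Over the 13 kinases, factors and feedback genes of the route the median was 0.14, and it was 0.062 without Cat−/− library 6. With no overlap 6 were higher and 0 lower, against 7.12% and 4.04% of all genes. Ddit3, which encodes CHOP, was at 35.1, 35.9 and 43.2 CPM in the Cat−/− libraries, against 27.2, 26.2 and 24.3 CPM in the wild-type libraries. Ppp1r15a (GADD34), the phosphatase subunit that ends the response, was at 213, 187 and 209.7 CPM in Cat−/− libraries and 158, 159.6 and 109 CPM in wild-type libraries. The groups were separate for both genes, with log2 differences of 0.56 ± 0.10 and 0.51 ± 0.13. Atf4 mRNA was at 223, 206 and 211 CPM in Cat−/− libraries and 194, 191 and 178 CPM in wild-type libraries, a log2 difference of 0.18 ± 0.065 (unadjusted p = 0.016). Of the kinases, Eif2ak1, which senses haem, stood at 0.26 and at 0.15 without wild-type library 12, and Eif2ak2, Eif2ak3 and Eif2ak4 at 0.056, 0.0067 and 0.0042. Cebpb and Atf5, factors of the same route, stood at −0.11 and −0.036. Atf3, a stress-induced factor that was not put in the list, stood at −1.45, and at −0.27 without wild-type library 12.

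Among the remaining targets, Sesn2, a stress-induced inhibitor of mTORC1 signalling, was at 27.2, 26.9 and 35.1 CPM in Cat−/− libraries and 24.7, 20.3 and 21.3 CPM in wild-type libraries. It was the 1 member of this role out of 7 with no overlap, against 7.12% higher and 4.04% lower among all genes. Chac1, which degrades glutathione, was at 6.63, 7.1 and 6.02 CPM in Cat−/− libraries and 3.6, 10.7 and 7.9 CPM in wild-type libraries, with the wild-type values on both sides of the knockout ones. Vldlr, a lipoprotein receptor, was at 46.9, 63.6 and 33 CPM in Cat−/− libraries and 35.7, 69.5 and 98.6 CPM in wild-type libraries, and also overlapped. Stc2 and Ddit4 stood at 0.50 and 0.19 with overlapping groups (0.19 to 0.91 and −0.11 to 0.48 as single libraries were left out), and Fgf21 was too low to be tested.

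The cytosolic aminoacyl-tRNA synthetases, which load amino acids on tRNAs, stood slightly higher. Of the 19 tested, 17 were above 0, and 7 were higher and 0 lower with no overlap (7.12% and 4.04% of all genes). The median was 0.13, against −0.041 under PBS with 7 of 19 above 0. Aars, for alanine, was at 172, 149 and 175 CPM in the Cat−/− libraries, against 148, 124 and 111 CPM in the wild-type libraries. Yars, for tyrosine, was at 57.7, 54.7 and 60.0 CPM in the Cat−/− libraries, against 52.2, 48.6 and 41.2 CPM in the wild-type libraries. Both were higher in every knockout library, by 0.37 ± 0.10 and 0.28 ± 0.088 on the log2 scale, with adjusted p of 0.82 and 0.82 (edgeR). Dars and Eprs lay slightly below 0, at −0.027 and −0.092. The list median fell to 0.089 without library 12, with 18 of 19 above 0.

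**Figure D3:**
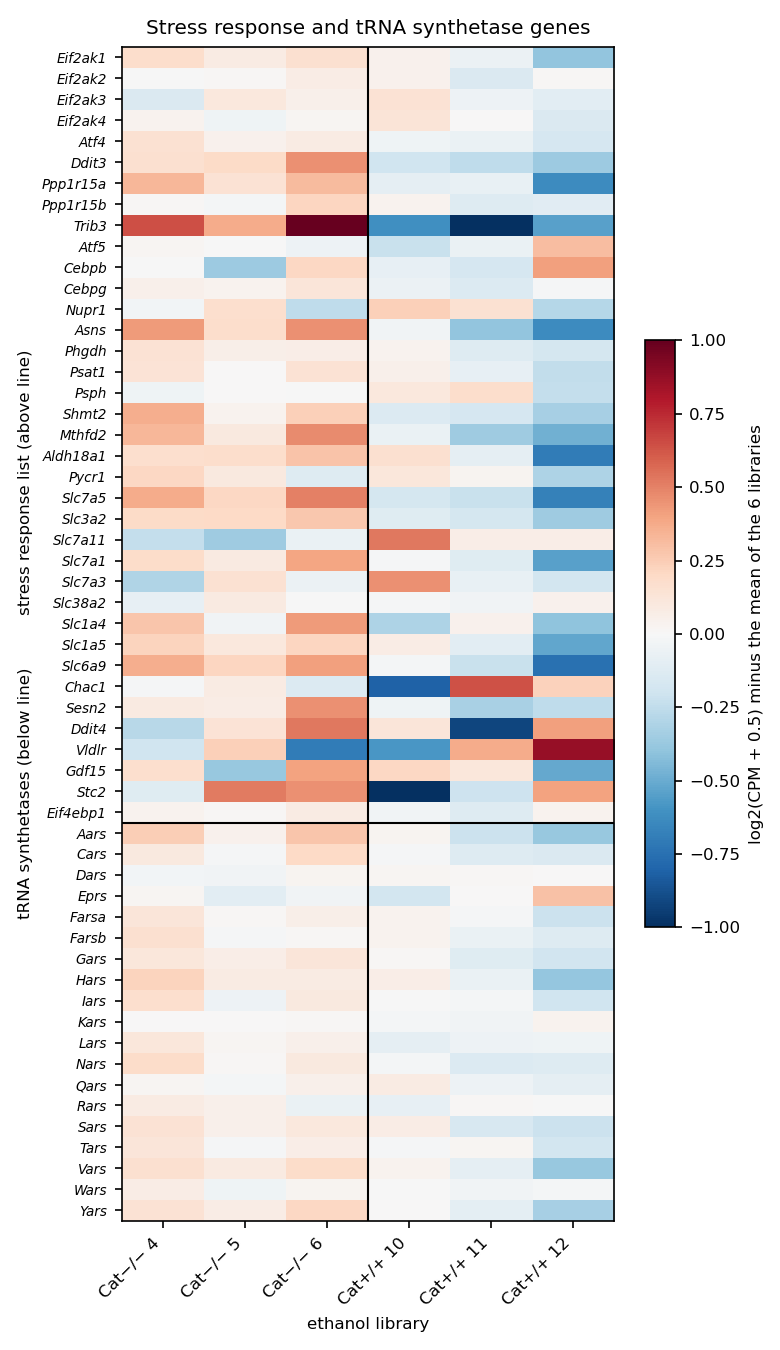
Levels of the 37 stress response genes (above the line) and 19 aminoacyl-tRNA synthetases (below it) in each ethanol library, with the 3 Cat−/− columns left of the 3 wild-type columns; colour gives log2(CPM + 0.5) minus the mean of the 6 libraries and is capped at 1 in either direction. The knockout columns are redder for 17 stress response genes with no overlap, Slc7a11 shows the opposite pattern, and wild-type library 12 is the bluest column for Slc7a5, Asns and Slc6a9.

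Binding elements for ATF4 and its C/EBP partners often read TGATGNAA, where N is any base. Promoter sequences of 300 bases, from 250 before to 50 after the start of each gene, were taken from RefSeq on GRCm38.p6 and searched for these letters on both strands. Of 32851 promoters 3.97% held a match, as did 2.96% of the 12290 tested genes with a promoter in the table. In the stress response list it was 9 of the 33 with a promoter (27.3%), which were Trib3, Nupr1, Asns, Pycr1, Slc7a11, Slc1a4, Chac1, Vldlr and Fgf21. Among the tRNA synthetases it was 5 of 13 (38.5%), which were Aars, Gars, Iars, Tars and Yars, and in the cell cycle, osteoclast and erythroid lists it was 0 of 30, 0 of 8 and 0 of 13. A match describes letters only. Both lists with matches were made of genes that the ATF4 route raises, so their higher shares say nothing about the knockout. At a share of 2.96%, lists of 30, 8 and 13 promoters can easily hold 0 matches. Of the genes with a match, Trib3, Asns and Aars were higher in every knockout library, and Slc7a11, with 2 matches, was lower in every one. Nupr1, Pycr1, Slc1a4, Chac1 and Vldlr overlapped the wild-type libraries, with Nupr1, Chac1 and Vldlr below 0. Of the other synthetases with a match, Gars and Yars were higher in every knockout library, and Iars and Tars overlapped. The promoters of 4 of them are shown 5′ to 3′ on the strand of the gene, with the matched letters in capitals, to set 3 members that were higher with no overlap beside the 1 that was lower with no overlap. They lie at chr6:7693160-7693459 (minus strand, Asns), chr2:152344011-152344310 (minus strand, Trib3), chr8:111033592-111033891 (plus strand, Aars) and chr3:50443564-50443863 (minus strand, Slc7a11).
Asns: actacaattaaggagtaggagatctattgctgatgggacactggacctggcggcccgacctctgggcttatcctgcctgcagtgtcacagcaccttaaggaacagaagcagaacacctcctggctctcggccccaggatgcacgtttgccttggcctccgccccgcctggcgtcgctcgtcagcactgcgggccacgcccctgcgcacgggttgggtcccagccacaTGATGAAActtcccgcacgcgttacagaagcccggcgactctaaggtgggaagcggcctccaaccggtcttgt
Trib3: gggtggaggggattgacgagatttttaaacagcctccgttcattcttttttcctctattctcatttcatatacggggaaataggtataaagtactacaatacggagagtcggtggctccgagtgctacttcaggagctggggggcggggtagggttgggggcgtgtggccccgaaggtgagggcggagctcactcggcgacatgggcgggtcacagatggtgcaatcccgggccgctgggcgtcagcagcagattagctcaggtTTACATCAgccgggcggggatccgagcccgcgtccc
Aars: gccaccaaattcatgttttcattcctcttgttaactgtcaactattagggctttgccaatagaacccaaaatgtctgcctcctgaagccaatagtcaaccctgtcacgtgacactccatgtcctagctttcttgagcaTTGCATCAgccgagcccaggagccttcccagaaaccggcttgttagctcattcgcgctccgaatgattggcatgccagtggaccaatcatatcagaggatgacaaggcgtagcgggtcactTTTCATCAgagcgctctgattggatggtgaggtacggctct
Slc7a11: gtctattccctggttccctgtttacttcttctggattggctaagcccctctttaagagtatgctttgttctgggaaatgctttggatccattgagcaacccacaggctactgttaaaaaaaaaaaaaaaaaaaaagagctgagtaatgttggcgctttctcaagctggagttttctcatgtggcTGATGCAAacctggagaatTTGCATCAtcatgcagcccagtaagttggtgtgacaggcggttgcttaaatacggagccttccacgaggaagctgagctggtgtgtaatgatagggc

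Other branches of the stress network had medians nearer 0. The 20 genes of the unfolded protein response, the chaperones and sensors of the endoplasmic reticulum, had a median of 0.049. With no overlap 2 were higher and 0 lower, against 7.12% and 4.04% of all genes. The 14 heat shock genes had a median of −0.0084 with 1 higher and 0 lower. The 19 ribosome biogenesis genes had a median of 0.12, which was 0.036 without library 12. Fbl, the nucleolar enzyme that methylates ribosomal RNA, was at 82.3, 71.3 and 77.3 CPM in Cat−/− libraries and 69.5, 65.2 and 59.4 CPM in wild-type libraries.

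The genes that remove hydrogen peroxide by other routes did not stand apart in the knockout. Of 20 peroxiredoxin, glutathione peroxidase, thioredoxin and superoxide dismutase genes, 10 were above 0, and the median was −0.0030 (lowest adjusted p 0.820, edgeR). With no overlap 2 were higher, a share near the 7.12% of all genes, and 0 were lower. Prdx2, the peroxiredoxin abundant in red cells, was at 549.7, 511 and 502 CPM in Cat−/− libraries and 491, 432 and 296 CPM in wild-type libraries. Txnrd2, the mitochondrial thioredoxin reductase, was at 57, 52.3 and 53 CPM in Cat−/− libraries and 49.1, 44.3 and 30.0 CPM in wild-type libraries. These 2 were the members with no overlap, at 0.36 ± 0.16 and 0.39 ± 0.14, and under PBS they stood at 0.32 and 0.25. Without wild-type library 12 they stood at 0.18 and 0.22 under ethanol. Gpx1, the main cytosolic glutathione peroxidase, was at 1065, 1055 and 1021 CPM in Cat−/− libraries and 1063, 938 and 780.5 CPM in wild-type libraries. Sod2, the mitochondrial superoxide dismutase, was at 54.9, 51 and 49.2 CPM in Cat−/− libraries and 50.8, 61.5 and 82.1 CPM in wild-type libraries. Both overlapped between the groups.

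Targets of NRF2, the transcription factor of the oxidant response, were divided. The median over 22 genes was −0.035, and it ran from −0.088 to 0.048 as single libraries were left out. With no overlap 4 were higher and 2 lower, against 7.12% and 4.04% of all genes. Gclm and Gclc, the subunits of the enzyme that starts glutathione synthesis, stood at 0.28 ± 0.12 and 0.32 ± 0.16 under ethanol and at 0.27 and 0.33 under PBS. Without wild-type library 12 both were 0.14 under ethanol. Hmox1, which breaks down haem, was at 168, 177 and 189 CPM in Cat−/− libraries and 159.7, 156 and 97.2 CPM in wild-type libraries, without overlap. Nqo1, a quinone reductase often read as the marker of the pathway, was at 10.8, 9.5 and 11.3 CPM in Cat−/− libraries and 9.73, 11.4 and 13.1 CPM in wild-type libraries, with overlap. The peroxisome genes, 29 tested, had a median of −0.066. Against shares of 7.12% and 4.04% of all genes, 0 were higher and 2 lower with no overlap. Abcd3, a fatty acid transporter of the peroxisome membrane, was 1 of these, at 42.5, 41.7 and 44.8 CPM in Cat−/− libraries and 45.6, 48.5 and 58.2 CPM in wild-type libraries. The 9 NADPH oxidase genes, which make superoxide, had a median of −0.22, and −0.068 without library 12.

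Of the 11 genes of ethanol metabolism, Cat was the 1 that changed by the test. Adh1, the classical alcohol dehydrogenase, was at 6.11, 8.36 and 5.66 CPM in Cat−/− libraries and 4.2, 6.39 and 13.2 CPM in wild-type libraries. Cyp2e1, the microsomal ethanol oxidase, was at 1.76, 0.882 and 2.85 CPM in Cat−/− libraries and 0.138, 4.98 and 8.58 CPM in wild-type libraries. Both were highest in wild-type library 12 and overlapped between the groups. Adh5 stood at −0.076 ± 0.076 and Adh7 at 0.13 ± 0.31. Aldh2, the mitochondrial enzyme that clears acetaldehyde, was at 586, 585 and 633 CPM in Cat−/− libraries and 585, 549.8 and 719 CPM in wild-type libraries, a log2 difference of −0.040 ± 0.11. Acss1, which turns acetate into acetyl-CoA in mitochondria, was at 78.5, 76.2 and 76.5 CPM in Cat−/− libraries and 74.4, 65.4 and 49.3 CPM in wild-type libraries, without overlap and at an adjusted p of 0.82. Aldh1a1, Aldh1b1, Aldh3a2 and Acss2 stood between −0.22 and −0.023, and of these Aldh3a2, which oxidises fatty aldehydes, was lower with no overlap, at −0.12.

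Osteoclast genes stood lower in the Cat−/− ethanol libraries, none of them past the threshold. Of 16 members 14 were below 0, and 5 were lower and 0 higher with no overlap (4.04% of all genes were lower with no overlap). The median was −0.25, against 0.082 under PBS with 13 of 16 above 0. Under PBS these genes took 0.426%, 0.447% and 0.437% of the counts in Cat−/− libraries. In the muscle-rich wild-type PBS libraries 8 and 9 they took 0.359% and 0.372%, and in library 7 0.423%. Ctsk, the collagen-degrading protease of osteoclasts, was at 577, 416 and 484 CPM in the Cat−/− libraries, against 927, 619 and 622 CPM in the wild-type libraries. Acp5 (tartrate-resistant acid phosphatase) was at 580.1, 449 and 478 CPM in the Cat−/− libraries, against 876, 606 and 535 CPM in the wild-type libraries. Library 10 was the highest for both genes; Ctsk did not overlap and Acp5 did. The log2 differences were −0.55 ± 0.18 for Ctsk (unadjusted p = 0.00983, adjusted p = 0.82, edgeR) and −0.42 ± 0.17 for Acp5 (adjusted p = 0.82). The differences between the gavages were −0.66 ± 0.25 and −0.53 ± 0.24, at unadjusted p of 0.0234 and 0.0497 and an adjusted p of 1.0 for both.

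The fusion genes Dcstamp and Ocstamp, by which precursors join into multinucleate cells, stood at 6.9, 5.25 and 5.29 and 6.66, 5.8 and 5.99 CPM in the Cat−/− libraries, against 12.7, 7.0 and 7.48 and 11.5, 6.39 and 6.79 CPM in the wild-type libraries. Library 10 was again the highest, and the groups were separate for Dcstamp and overlapped for Ocstamp. Mmp9, a gelatinase of osteoclasts and neutrophils, was at 985, 922 and 912 CPM in Cat−/− libraries and 1275, 1036 and 1229.9 CPM in wild-type libraries, without overlap. The exceptions in the list were Car2, the carbonic anhydrase shared with red cells, and the integrin Itgb3, shared with platelets, at 0.36 and 0.17, and at 0.10 and 0.068 without wild-type library 12. Leaving out wild-type library 10 brought the list median to −0.11, Ctsk to −0.33 and Acp5 to −0.18, and leaving out any other library kept the median between −0.31 and −0.21. The cytokines that drive osteoclasts did not shift as a group: the median of 7 was −0.048. Tnfsf11 (RANKL) was at 8.56, 6.72 and 6.61 CPM in Cat−/− libraries and 8.9, 7.79 and 9.43 CPM in wild-type libraries. Il34, an alternative ligand of the CSF1 receptor, was at 29.3, 33.6 and 42.4 CPM in Cat−/− libraries and 25.2, 28.1 and 21.8 CPM in wild-type libraries. The groups overlapped for Tnfsf11 and did not for Il34.

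The bone-forming lineage showed no shift beyond the spread between pools. The median log2 difference was −0.079 over 18 osteoblast genes, −0.077 over 12 osteocyte genes and −0.086 over 27 matrix genes. As single libraries were left out these medians ran from −0.30 to 0.15, −0.32 to 0.11 and −0.27 to 0.13, so each took both signs. Under PBS the medians were 0.15, −0.28 and 0.21, with 12 of 18, 1 of 12 and 24 of 27 above 0. Col1a1 was at 8142, 11271 and 4803 CPM in Cat−/− libraries and 10252, 10044 and 5197 CPM in wild-type libraries, with library 6 and library 12 low. Bglap followed the same libraries, at 302, 471 and 178 CPM in Cat−/− and 478, 363 and 163 CPM in wild-type libraries, and how reads of its near copies Bglap2 and Bglap3 were split is not stated in the labels. Dmp1, an osteocyte phosphoprotein, was at 547, 701 and 449.7 CPM in Cat−/− libraries and 476, 514 and 649 CPM in wild-type libraries. Runx2, the master transcription factor of osteoblasts, was at 83.3, 91.3 and 81.9 CPM in Cat−/− libraries and 106, 93.2 and 89.8 CPM in wild-type libraries, and the groups overlapped. Phospho1, a phosphatase of matrix mineralisation, was at 11.2, 11.3 and 10.4 CPM in Cat−/− libraries and 12.7, 12.8 and 15.5 CPM in wild-type libraries, without overlap, at a log2 difference of −0.32 ± 0.14 (adjusted p = 0.82).

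Proliferation genes stood higher by a small and even amount. Of 39 cell cycle genes 37 were above 0, and the median was 0.23. With no overlap 12 were higher and 0 lower, against 7.12% and 4.04% of all genes. Higher at an unadjusted edgeR p under 0.05 were 29 (4.16% of all genes were). None passed the adjusted threshold of edgeR. Plk1, a mitotic kinase, was at 93.6, 80.5 and 91.7 CPM in Cat−/− libraries and 78.3, 71.5 and 64.8 CPM in wild-type libraries. Cdt1, which licenses replication origins, was at 69, 68.7 and 80.1 CPM in Cat−/− libraries and 67, 53.9 and 51.7 CPM in wild-type libraries. Rrm2, the ribonucleotide reductase subunit of S phase, was at 388, 341 and 405 CPM in Cat−/− libraries and 338, 321 and 261 CPM in wild-type libraries. Every knockout library exceeded every wild-type library in these 3 genes, and library 12 was the lowest. The summed level was 7305, 6799.7 and 7553 CPM in Cat−/− libraries and 6689.8, 6324 and 5416 CPM in wild-type libraries, the median without library 12 was 0.15, and under PBS it was 0.15. Mybl2 and Uhrf1, regulators of dividing cells outside the list, were among the 15 higher genes, at 0.35 ± 0.080 and 0.31 ± 0.076.

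Red cell genes stood higher with them. All 20 erythroid genes were above 0, with a median of 0.39 under ethanol and 0.39 under PBS. Of them 12 were higher with no overlap, against 7.12% of all genes. Ank1, which anchors the red cell membrane skeleton, was at 373, 328 and 376 CPM in Cat−/− libraries and 285, 301 and 231 CPM in wild-type libraries. The groups were separate for this gene, and library 12 was the lowest. The erythroid sum was 23530.4, 22572 and 20905 CPM in Cat−/− libraries and 22436, 19399.9 and 12541 CPM in wild-type libraries, and the groups overlapped at wild-type library 10. Without library 12 the median was 0.19, still with 20 of 20 above 0. Erfe, the hormone by which erythroblasts lower hepcidin, was at 14.9, 4.08 and 8.62 CPM in Cat−/− libraries and 6.78, 4.7 and 3.21 CPM in wild-type libraries, with overlap. The 10 platelet genes were all above 0, and 1 of them was higher with no overlap, a share near the 7.12% of all genes, at a median of 0.27 under ethanol and 0.23 under PBS. The platelet median was 0.16 without wild-type library 12 and 0.14 without Cat−/− library 6.

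The erythroid and cell cycle sums, the muscle share and the stress response sum all had their extreme at wild-type library 12, and what the share of red cell precursors in a pool contributed to the stress response genes was not tested. Haem synthesis genes, Slc6a9 and Eif2ak1 are used by red cell precursors, and Slc7a5 is too.

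Neutrophil genes stood lower and macrophage genes were mixed. All 15 neutrophil genes were below 0, at a median of −0.22 under ethanol and −0.33 under PBS. With no overlap 1 was lower, a share near the 4.04% of all genes. It was Csf3r, the receptor of the granulocyte growth factor, at 288, 291 and 313 CPM in Cat−/− libraries and 377, 319 and 366 CPM in wild-type libraries. Without library 12 the median was −0.049 with 5 of 15 above 0. Among 13 monocyte and macrophage genes 4 were higher and 2 lower with no overlap (7.12% and 4.04% of all genes). C1qa and C1qc, complement components made by resident macrophages, stood at 0.39 ± 0.13 and 0.34 ± 0.12, and Vcam1, which macrophages and stroma carry, at 0.39 ± 0.17. Without wild-type library 12 these were 0.24, 0.19 and 0.20. Stab1, a scavenger receptor of marrow sinus lining and macrophages, was among the 15 higher genes at 117, 106 and 117 CPM in Cat−/− libraries and 90.5, 93.9 and 81.8 CPM in wild-type libraries. Cx3cr1, a receptor of patrolling monocytes, was at 31.4, 29.6 and 26.3 CPM in Cat−/− libraries and 43.1, 41 and 28.4 CPM in wild-type libraries, which overlapped. B cell genes had a median of 0.020, which ran from −0.29 to 0.31 as libraries were left out.

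**Figure D4:**
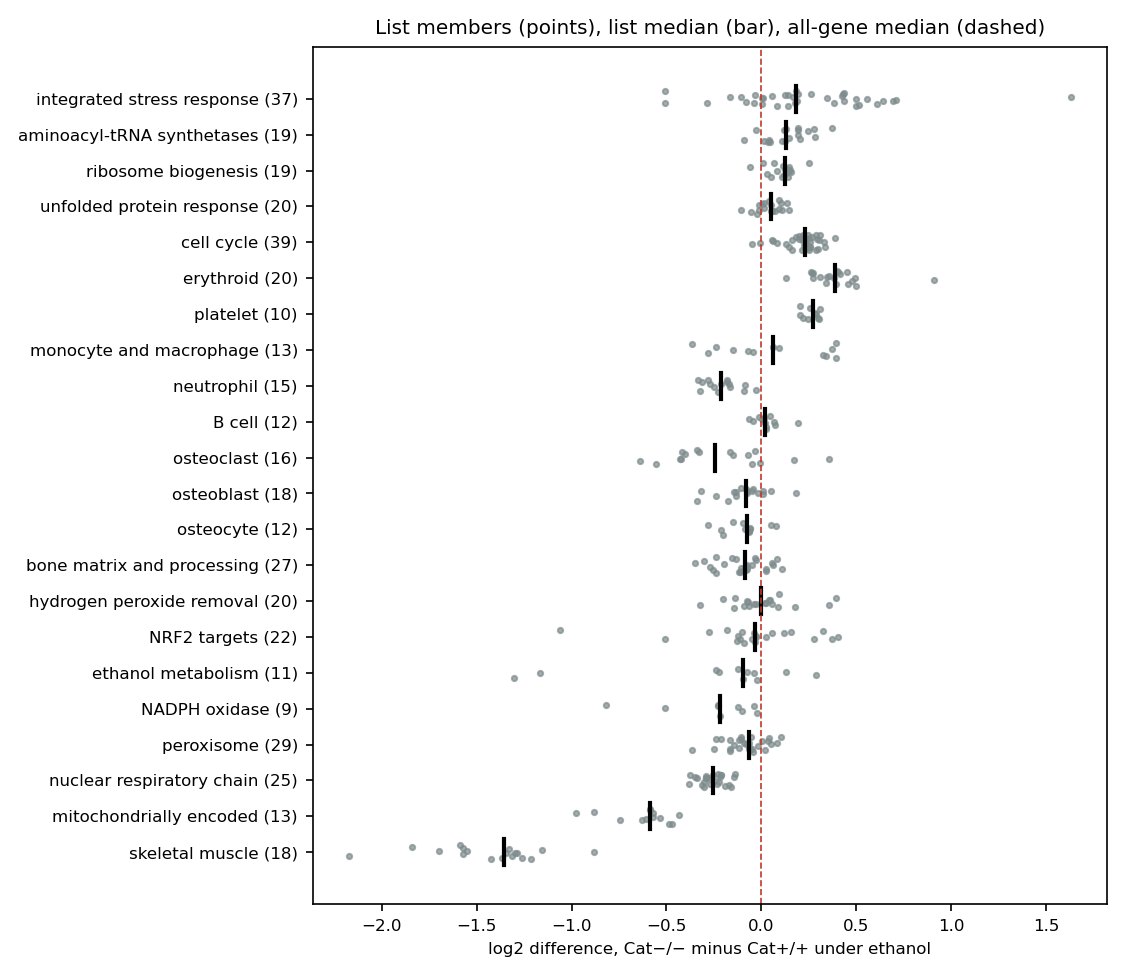
Log2 difference between Cat−/− and wild-type ethanol libraries (horizontal axis) for each member of 22 gene lists (points, with the number of tested members in parentheses) and the list median (bar), beside the median of all genes (dashed line). Erythroid, platelet and cell cycle members lie at or right of 0 with 2 cell cycle exceptions, osteoclast members lie mostly left of it, and muscle members lie farthest left, at a median of −1.36.

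The largest median belonged to skeletal muscle, and its size depended on wild-type library 12. All 18 muscle genes were below 0, with a median of −1.36, but 0 had separate groups. Their summed level was 8709, 10186 and 7859 CPM in Cat−/− libraries and 1997, 22886 and 45138 CPM in wild-type libraries 10, 11 and 12, so the knockout libraries lay between library 10 and library 11. Myh1, a fast muscle myosin, was at 175, 188 and 68.4 CPM in Cat−/− libraries and 75.9, 247 and 1626 CPM in wild-type libraries. Without library 12 the muscle median was −0.43, still with 0 of 18 above 0. Under PBS it was −1.61, also with 0 of 18 above 0. The mitochondrial genes followed: 13 mitochondrially encoded genes had a median of −0.59, and −0.10 without library 12. The 25 nuclear respiratory chain genes had −0.25, and −0.035 without it. Under PBS the medians of these lists were −1.01 and −0.52. Atf3, a stress-induced transcription factor, was at 4.0, 5.0 and 3.54 CPM in Cat−/− libraries and 4.24, 5.82 and 24.2 CPM in wild-type libraries. Its log2 difference of −1.45 became −0.27 without library 12.

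Of the 15 lower genes with the smallest p and no overlap, Cd59a and Cat passed the edgeR test and Ifngr2 passed DESeq2. Ifngr2, the signalling chain of the interferon gamma receptor, was at 66.6, 65.5 and 64.9 CPM in the Cat−/− libraries, against 76.3, 78.1 and 87.9 CPM in the wild-type libraries. The knockout values lay within a narrow band below the wild-type ones, at a log2 difference of −0.30 ± 0.063 (adjusted p = 0.61 by edgeR, 0.0486 by DESeq2). Il1rn, the antagonist of the interleukin 1 receptor, was at 25.1, 29.2 and 26.5 CPM in Cat−/− libraries and 39.4, 33.6 and 32.9 CPM in wild-type libraries. Tgfbr1, the type I receptor of TGF-beta, was at 88.2, 77.8 and 86.9 CPM in Cat−/− libraries and 99.9, 95.4 and 102 CPM in wild-type libraries. Slc9a2, a sodium-proton exchanger, was at 6.21, 7.73 and 3.69 CPM in Cat−/− libraries and 9.68, 9.86 and 12.4 CPM in wild-type libraries. These 3 differed by −0.39 ± 0.11, −0.23 ± 0.061 and −0.86 ± 0.23, with an adjusted p of 0.82 each. The rest were Rasa4, Zfp992, Cryba4, Gfpt1, Aplnr, Tmcc1, Mpzl3, Zfp759 and Prickle3, with log2 differences of −0.85 to −0.19.

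Among the 15 higher genes outside the stress response, Adam33, a membrane metalloprotease, was at 15.9, 15.7 and 17.2 CPM in Cat−/− libraries and 12.2, 11.7 and 8.79 CPM in wild-type libraries. Pim1, a kinase induced by cytokines, was at 133, 108 and 124 CPM in Cat−/− libraries and 97.9, 94.8 and 86.6 CPM in wild-type libraries. Aoc2, a copper amine oxidase, was at 18.8, 17.9 and 17.8 CPM in Cat−/− libraries and 15.3, 13.6 and 13.3 CPM in wild-type libraries. The differences were 0.58 ± 0.13, 0.39 ± 0.091 and 0.37 ± 0.083, and DESeq2 called Adam33 of the 3 (adjusted p = 0.049). Chromosome 2, which carries Cat, held 5 of the 15 higher and 4 of the 15 lower genes, and 7.5% of all tested genes. Trib3, of the stress response list, was among these higher genes on chromosome 2. Besides the named stress response genes, Depdc7, Tcp11l1 and Adam33, DESeq2 called Igkv6-25 higher. This immunoglobulin segment shares sequence with other segments. It was at 11.1, 9.96 and 8.18 CPM in Cat−/− libraries and 3.5, 5.12 and 3.69 CPM in wild-type libraries.

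The DESeq2 calls depended on the libraries used. Of the 14 genes, 9 were still called without Cat−/− library 4, 11 without library 5, and 4 without library 6. Without wild-type libraries 10, 11 and 12 they were 9, 8 and 7. Cat, Cd59a, Slc7a5 and Slc3a2 were called in each of these 6 fits. The total called ran from 5 genes without library 6 to 192 without library 10.

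Whether the knockout difference depended on the gavage was tested in the same model as an interaction, (Cat−/− minus wild type under ethanol) minus (Cat−/− minus wild type under PBS). By edgeR 0 genes passed, with 359 at an unadjusted p under 0.05 (1.98%), and DESeq2 called 1, Igkv6-25. The 7 stress response genes described above were chosen by their p under ethanol, so their values under PBS and their interaction p-values are given as a description. The difference under ethanol is part of the interaction, so this choice by itself favours small interaction p-values. That holds for every gene named here by its p under ethanol. Asns averaged 101 CPM in Cat−/− and 62.7 CPM in wild-type libraries under ethanol, and 42 CPM in Cat−/− and 40.3 CPM in wild-type libraries under PBS. Slc7a5 averaged 147 CPM in Cat−/− and 90.0 CPM in wild-type libraries under ethanol, and 78.4 CPM in Cat−/− and 72.3 CPM in wild-type libraries under PBS. Their interaction was 0.63 ± 0.19 and 0.59 ± 0.16, at unadjusted p of 0.00671 and 0.00342 and an adjusted p of 1.0 for both. For Slc3a2, Ddit3, Mthfd2 and Shmt2 the interaction was 0.31, 0.54, 0.59 and 0.53, at unadjusted p of 0.011, 0.00332, 0.00451 and 0.00117. Of the 9 transport genes, 7 were above 0 under ethanol and 8 under PBS. Cat itself had an interaction of 0.0019 ± 0.14. Of the 42 lists, the lowest median interactions were −0.35 for bone matrix, −0.31 for osteoblasts, −0.23 for B cells and −0.18 for osteoclasts. The highest were 0.46 for mitochondrially encoded genes, 0.29 for the nuclear respiratory chain, 0.26 for fatty acid oxidation, 0.25 for hypoxia and glycolysis, 0.25 for muscle and 0.21 for the stress response. It was 0.017 for erythroid genes and 0.050 for the cell cycle.

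**Figure D5:**
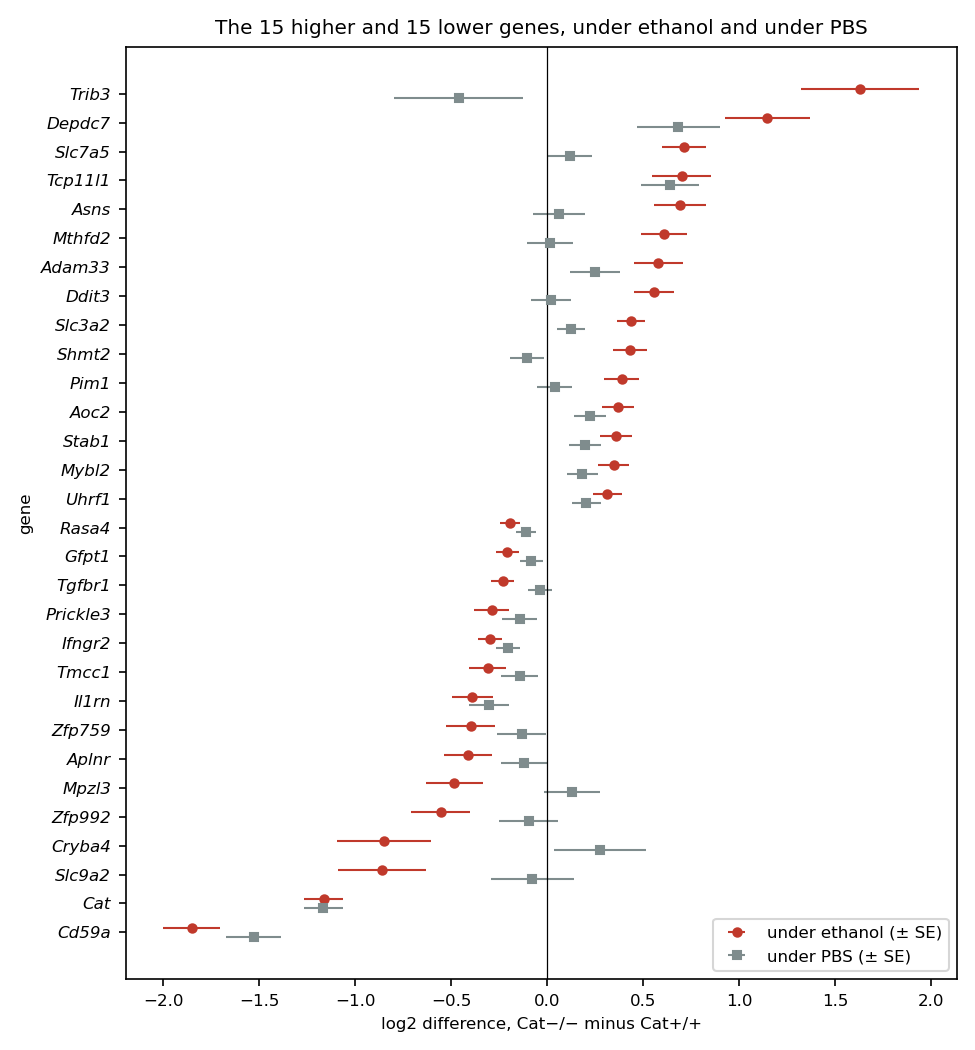
Log2 difference between Cat−/− and wild-type libraries (horizontal axis, ± SE) under ethanol (circles) and under PBS (squares) for the 15 higher and 15 lower genes under ethanol. Cat and Cd59a lie left of 0 under both gavages, while Trib3, Asns, Mthfd2, Ddit3 and Shmt2 lie right of 0 under ethanol and at −0.46, 0.060, 0.012, 0.019 and −0.10 under PBS, and Slc7a5 and Slc3a2 both lie at 0.12 under PBS.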

How the data were processed

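RNA of the femoral shaft was sequenced in bulk in 12 libraries, 3 in each of 4 groups, each from 2 pooled male mice. The authors deposited raw gene counts, whole numbers with no scaling. Tools in the submitters' processing notes are STAR 2.5.2b, Subread 1.5.2 with featureCounts, and Trimmomatic 0.36, with GRCm38 as the build; use of strand, annotation release and handling of multiply matched reads: not given in the sources used here. A deposited normalized signal, equal to the count divided by 1 factor per library, was used in 1 alternative. Symbols came from that table or from GENCODE M21 (GRCm38), which gave the coordinates.

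Libraries were scaled by TMM after low genes had been removed with filterByExpr, at its minimum count of 10 and total of 15. A single edgeR 4.0.16 quasi-likelihood model (R 4.3.3) over all 12 libraries, with 1 coefficient per group and 8 residual degrees of freedom, gave the knockout difference under ethanol, under PBS and their interaction. Adjusted p-values are Benjamini-Hochberg over the 18161 genes, and are from edgeR where no tool is named. The SE of a log2 difference is its size over the square root of F. No overlap means that all 3 libraries of 1 group lie above all 3 of the other. The test was checked on simulated data.

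Named genes were those called by edgeR, DESeq2 1.42.0 or limma-voom (limma 3.58.1), the 15 higher and 15 lower genes with the smallest p among those with a mean of at least 1 CPM over the 6 ethanol libraries and no overlap (predicted genes, pseudogenes and receptor segments left out), up to 4 members of each of 42 gene lists by smallest p, and the lists of catalase, peroxide removal and ethanol metabolism. Other members named to describe a role, among them Ppp1r15a, Atf4, Slc7a1, Slc1a5, Slc6a9, Slc7a11, Hmox1 and Nqo1, and Elf5, were chosen after their values were seen. The genes, lists and tests were chosen with earlier results of these data known. Alternatives were other scalings and filters, DESeq2, limma-voom, limma-trend on log2(signal + 1), only the 6 ethanol libraries, the muscle genes as a covariate, and leaving out libraries.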

Additional observations from a re-analysis of the deposited data

How the results depend on the processing

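Cat and Cd59a were called lower in every alternative run. The number of genes called higher, 0 by edgeR, was 1 with no filter on low counts (Slc7a5, adjusted p 0.0370, in a range of 2.03e-06 to 0.93 over all alternatives), 11 with DESeq2, 11 with DESeq2 without its filter on mean counts, and 9 with DESeq2 on only the 6 ethanol libraries. With each ethanol library left out of DESeq2 it was 2 to 165, and the number called lower was 3 to 27; both extremes at the upper end came without wild-type library 10. The last 3 settings of DESeq2 were chosen after seeing the data. Genes whose knockout difference depended on the gavage numbered 0 by edgeR, 1 with DESeq2, 1 without its filter on mean counts, and 0 to 33 with 1 ethanol library left out of DESeq2, 33 without Cat−/− library 4. The cause of these differences between the tools was not tested.

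Genes below were called by neither edgeR nor DESeq2 with all libraries. The sign of their log2 difference changed when libraries were left out 1 at a time, by edgeR or DESeq2, with ranges of −0.39 to 0.19 for Col1a1, −0.48 to 0.27 for Bglap, −0.15 to 0.23 for Ibsp, −0.13 to 0.20 for Dmp1, −0.19 to 0.37 for Sost, −0.50 to 0.20 for Chac1, −0.11 to 0.48 for Ddit4, −0.070 to 0.022 for Acss2, −0.55 to 0.34 for Adh1, −0.070 to 0.47 for Adh7, −0.12 to 0.086 for Aldh2, −0.15 to 0.14 for Atf5, −0.25 to 0.095 for Cebpb, −0.0012 to 0.095 for Eif2ak2, −0.048 to 0.086 for Eif2ak3, −0.064 to 0.076 for Eif2ak4 and −0.20 to 0.048 for Eprs. Without the 3 libraries highest in muscle genes it turned to −0.16 for Ibsp, 0.33 for Adh1, 0.071 for Aldh2, 0.12 for Atf5, 0.080 for Cebpb, −0.054 for Eif2ak3, −0.075 for Eif2ak4 and 0.034 for Eprs. With the muscle genes as a covariate it turned to 0.13 for Chac1, 0.083 for Adh1, 0.061 for Atf5, 0.66 for Cyp2e1, −0.010 for Eif2ak3 and −0.020 for Eif2ak4. With upper-quartile factors it turned to −0.000503 for Eif2ak3 and −0.00297 for Eif2ak4. With no filter on low counts it turned to −0.00123 for Eif2ak3 and −0.00391 for Eif2ak4. With edgeR on only the 6 ethanol libraries it turned to −0.014 for Eif2ak3 and −0.016 for Eif2ak4. With genes of at least 5 CPM in 3 libraries it turned to −0.00191 for Eif2ak4. With DESeq2 on these 6 it turned to −5.25e−05 for Eif2ak4. No gene called by edgeR changed direction, and edgeR with any 1 of the 12 libraries left out gave 0 higher and 2 lower. Of the single libraries left out, wild-type library 12 moved the muscle, mitochondrial, neutrophil, NADPH oxidase and ribosome biogenesis medians most, as given above. Other medians moved without it too, such as B cell genes from 0.020 to −0.29 and erythroid genes from 0.39 to 0.19. No paired analysis was possible because the labels give no pairing between Cat−/− and wild-type libraries. Depth was 19950222 to 28036282 counts per ethanol library, so genes under about 1 CPM, such as Elf5 in wild type and Nox1, rest on few counts.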

Other observations

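Among gene groups not described above, most medians were within 0.12 of 0. The 20 Wnt signalling genes had a median of 0.027, the 16 genes of IGF and BMP signalling 0.11, the 13 inflammation genes −0.089 and the 13 targets of FoxO and autophagy 0.014. Cholesterol synthesis had −0.050 over 18 genes, matrix proteases −0.082 over 10, endothelial markers 0.064 over 9, marrow stroma and adipocyte markers 0.079 over 10, T and NK cell markers −0.050 over 9, cartilage markers −0.045 over 5 and immediate early genes 0.088 over 11. The glucocorticoid response list had −0.0013 over 16 genes, and 0.26 without wild-type library 12. Fatty acid oxidation (−0.26 over 14 genes), hypoxia and glycolysis (−0.34 over 15) and tendon and fascia (−0.19 over 4) had lower medians, which were 0.0095, −0.066 and −0.032 without that library.

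The 13 circadian clock genes had a median of −0.10, and 0.066 without wild-type library 12. Npas2, a clock transcription factor that can stand in for CLOCK, was at 1.62, 2.27 and 2.7 CPM in Cat−/− libraries and 0.784, 1.46 and 1.32 CPM in wild-type libraries under ethanol, without overlap. Its log2 difference was 0.89 ± 0.26 under ethanol and −0.43 under PBS, with an interaction of 1.32 ± 0.38 (unadjusted p = 0.00463, adjusted p = 1.0, edgeR).

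Mt2, a metallothionein induced by metals and glucocorticoids, was at 64.4, 77 and 84.7 CPM in Cat−/− libraries and 43.5, 53.9 and 61.3 CPM in wild-type libraries under ethanol, without overlap, at a log2 difference of 0.51 ± 0.23 (adjusted p = 0.82). Under PBS its means were 19 CPM in Cat−/− and 16 CPM in wild-type libraries.

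Foxo3, a transcription factor of stress resistance, was at 206, 206 and 219.6 CPM in Cat−/− libraries and 189, 195 and 151 CPM in wild-type libraries, and Sqle, an oxidase of cholesterol synthesis, at 15.5, 13.3 and 14.1 CPM in Cat−/− libraries and 12.4, 11.6 and 12.2 CPM in wild-type libraries. Neither pair of groups overlapped, and neither gene passed the edgeR threshold.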
